A study of Caenorhabditis elegans with 14 samples.

Results

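The genes described here encode subunits of CCT, the cytosolic chaperonin, and were taken by public gene name from the deposited gene coordinates of C. elegans (annotation WS190). They are cct-1, cct-2, cct-4, cct-5, cct-6, cct-7 and cct-8, which are 7 of the 20314 gene models that could be joined to the density tables. The rule uses names alone, but this gene family was picked with earlier results of these data known. RNA polymerase II was mapped by chromatin immunoprecipitation and sequencing (ChIP-seq), in which an antibody pulls down crosslinked DNA fragments, so that many reads over a gene mean much bound polymerase. All larvae were of the wild-type strain N2 and were taken whole. Embryos hatched in liquid medium without food and entered L1 arrest, the halt of development in starved larvae of the first stage. Arrested larvae were crosslinked after 6 hr or 12 hr of arrest. Recovering larvae were given the bacterial strain HB101 after 12 hr of arrest and were crosslinked 1 hr later.

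CCT, also called TRiC, is built of stacked rings in which each position is held by a different but related subunit. It encloses newly made proteins and lets them fold with the energy of ATP. Actin and tubulin are its best known clients, and prefoldin, a smaller chaperone, hands them over while they are still unfolded. A CCT ring needs all of its subunits, each made from its own gene.

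The 3 antibodies, S2, 4H8 and 8WG16, recognise the repeated tail of the polymerase's largest subunit. S2 recognises the tail phosphorylated at serine 2, which is typical of polymerase that is elongating, and 8WG16 binds mainly the unphosphorylated tail. The 12 hr arrest and the recovery states each had 1 library with S2, 2 with 4H8 and 1 with 8WG16. At 6 hr there was 1 column for S2, which carries the title of replicate 1 although 2 samples are listed. The ChIP libraries held 1322000 to 5863000 reads and the input column 11903000, as worked back from the smallest density steps. The name of this input column gives no state or replicate, and it was taken as pooled over the 4 input samples. Each arrest library has a label code whose first part it shares with the recovery library of the same antibody and replicate. The labels do not say what this code stands for, and changes are therefore also given within each such pair. In whole larvae, polymerase at a gene in fewer cells and less polymerase per cell cannot be told apart.

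The 7 genes lie on 4 chromosomes. In WS190 coordinates, cct-1 (T05C12.7) is at II:8185371-8187533 on the plus strand. On the same chromosome and strand are cct-4 (K01C8.10) at II:8283593-8285643 and cct-2 (T21B10.7) at II:8927657-8929834. On the minus strand of chromosome III, cct-5 (C07G2.3) is at III:4499158-4508083 and cct-6 (F01F1.8) at III:5853483-5855645. On the plus strand of chromosome V, cct-7 (T10B5.5) is at V:1872244-1875526. On the minus strand of chromosome IV, cct-8 (Y55F3AR.3) is at IV:1087185-1093920. Most models are short, from 2051 bp for cct-4 to 3283 bp for cct-7. The exceptions are cct-8 at 6736 bp and cct-5 at 8926 bp. Values below are densities in RPKM, reads per kilobase of gene model scaled to library depth, so levels of different genes are compared per length.

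Within 1 hr of feeding, polymerase density over the gene model was called higher at 6 of the 7 CCT genes, and at 22.9% of all genes tested. Among the 6, cct-8 was dense enough to be tested only through its recovery libraries. With libraries scaled on chemoreceptor genes none of the 7 passed, although the 6 changes stayed above 0. Averaged over antibodies the largest change was at cct-4, by 1.07 ± 0.13 (log2, standard error), followed by cct-1 and cct-7. The gene cct-5, which carried among the most polymerase in arrested larvae, did not pass the test, with a change of 0.10 ± 0.15. No member fell. Changes are differences of log2(RPKM + 5), a scale on which the change of sparsely occupied genes comes out too small.

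Density over cct-4, which encodes the delta subunit, was 24.3 RPKM with S2 at 6 hr of arrest and 29.8 RPKM with S2 at 12 hr. At 12 hr the 4H8 libraries gave 20.7 and 26.8 RPKM and the 8WG16 library 15.0 RPKM. After feeding it was 60.7 RPKM with S2, 65.3 and 47.8 RPKM with 4H8, and 39.8 RPKM with 8WG16. All recovery libraries were above all arrest libraries, and the lowest in each state was that of 8WG16. The 4H8 mean went from 23.8 ± 4.29 to 56.6 ± 12.3 RPKM (SD, n = 2 each), a ratio of 2.38.

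The alpha subunit gene, cct-1, had 28.7 RPKM with S2 at 6 hr. At 12 hr of arrest it had 27.0 RPKM with S2, 22.1 and 29.2 RPKM with 4H8, and 17.5 RPKM with 8WG16. After feeding it had 65.8 RPKM with S2, 60.6 and 48.0 RPKM with 4H8, and 34.6 RPKM with 8WG16. The states did not overlap here either. The 4H8 mean went from 25.7 ± 4.99 to 54.3 ± 8.90 RPKM (SD, n = 2 each).

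Density at cct-7, the eta subunit gene, was 35.5 RPKM with S2 at 6 hr. The 12 hr arrest libraries gave 41.8 RPKM with S2, 33.8 and 37.7 RPKM with 4H8, and 25.6 RPKM with 8WG16. The fed libraries gave 84.4 RPKM with S2, 81.4 and 65.3 RPKM with 4H8, and 41.5 RPKM with 8WG16. The 8WG16 library of recovery lay just under the S2 library of arrest, and the other recovery libraries were above every arrest library. In each of the 4 recovery libraries cct-7 was the most densely occupied member.

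The zeta subunit gene, cct-6, had 23.6 RPKM with S2 at 6 hr, and 24.6 RPKM with S2, 24.1 and 25.7 RPKM with 4H8, and 17.3 RPKM with 8WG16 at 12 hr. Feeding was followed by 53.6 RPKM with S2, 47.2 and 40.3 RPKM with 4H8, and 25.9 RPKM with 8WG16. The states did not overlap, although the 8WG16 value of recovery was close to the higher 4H8 value of arrest. The beta subunit gene, cct-2, had 22.2 RPKM with S2 at 6 hr, and 25.2 RPKM with S2, 22.1 and 21.9 RPKM with 4H8, and 13.6 RPKM with 8WG16 at 12 hr. In recovery it had 47.1 RPKM with S2, 44.0 and 35.5 RPKM with 4H8, and 24.3 RPKM with 8WG16. Its recovery library with 8WG16 was below its arrest library with S2, and within each antibody recovery was higher.

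The theta subunit gene, cct-8, was the least occupied member in each of the 9 libraries. It had 9.68 RPKM with S2 at 6 hr, and 8.24 RPKM with S2, 7.69 and 7.16 RPKM with 4H8, and 5.36 RPKM with 8WG16 at 12 hr. In recovery it had 16.6 RPKM with S2, 15.8 and 12.0 RPKM with 4H8, and 9.66 RPKM with 8WG16. At 12 hr no library reached the input density of 8.81 RPKM, and the 4 recovery libraries were all above it. This gene passed the filter of a mean density of at least 10 RPKM only through its recovery libraries. With no filter on density its change was also 0.60, with an adjusted p of 0.014 over all gene models (limma).

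The epsilon subunit gene, cct-5, had the smallest change of the members. It had 36.1 RPKM with S2 at 6 hr, and 36.3 RPKM with S2, 35.8 and 31.1 RPKM with 4H8, and 26.7 RPKM with 8WG16 at 12 hr. After feeding it had 47.6 RPKM with S2, 46.3 and 33.2 RPKM with 4H8, and 19.7 RPKM with 8WG16. The states overlapped, and with 8WG16 the fed library was the lower. The 4H8 mean went from 33.5 ± 3.31 to 39.7 ± 9.25 RPKM (SD, n = 2 each), a difference smaller than the spread of the fed replicates. Its model is the longest of the members and overlaps atf-7 by 292 bp, and ChIP reads carry no strand, so reads of the overlap belong to both models.

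**Figure D1:**
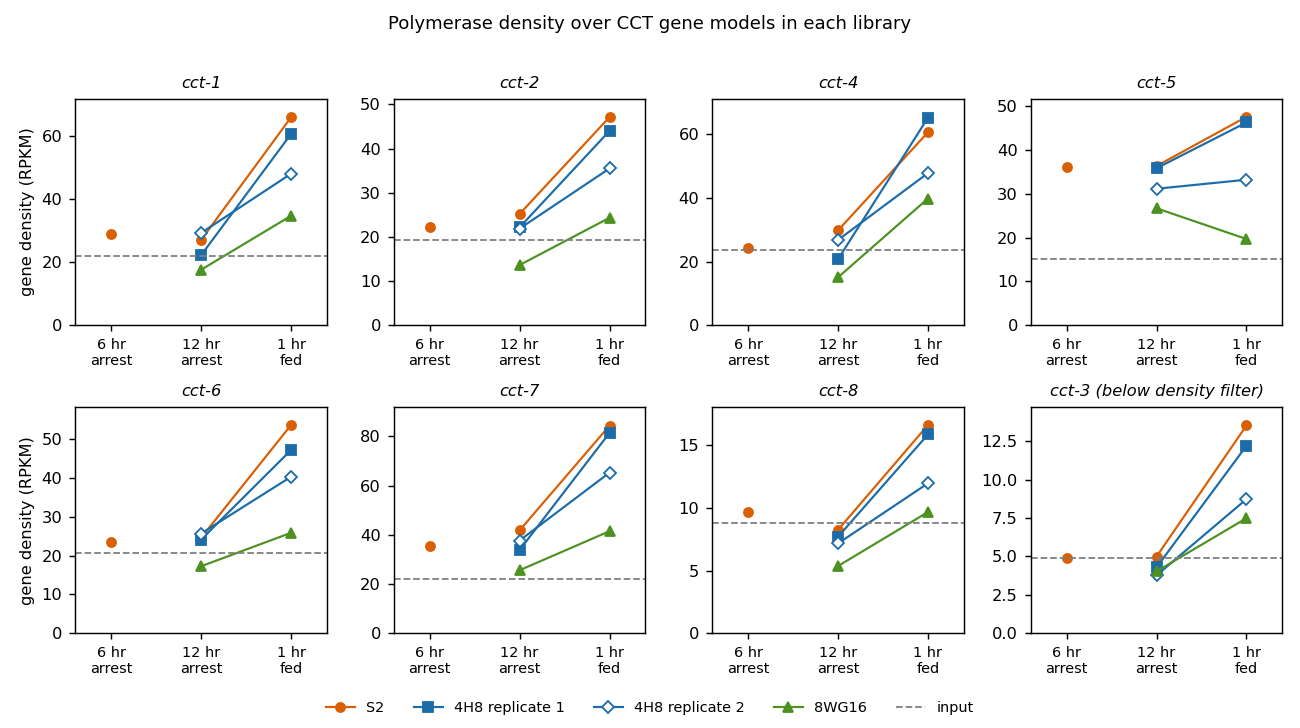
Density of polymerase over the gene model (RPKM, vertical axis from 0) of the 7 members and cct-3 at 6 hr of arrest, 12 hr of arrest and 1 hr after feeding. Each point is 1 library, lines join the arrest and recovery libraries of an antibody and replicate, and the dashed line is the pooled input. All lines rise for 6 members, and the 8WG16 line of cct-5 falls from 26.7 to 19.7 RPKM.

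The order of the members by level was set against the 4H8 replicates. In arrest the 4H8 means of cct-7 (35.8 ± 2.71 RPKM) and cct-5 (33.5 ± 3.31 RPKM) differed by less than their SDs (n = 2 each). Below them cct-1, cct-6, cct-4 and cct-2 lay between 25.7 and 22.0 RPKM, and neighbours in this order differed by less than the larger of their SDs. In recovery cct-7 led at 73.3 ± 11.4 RPKM, followed by cct-4 and cct-1, which differed by less than their SDs. Then came cct-6 (43.7 ± 4.86 RPKM), cct-2 (39.7 ± 6.02 RPKM) and cct-5 (39.7 ± 9.25 RPKM), again with differences smaller than an SD. Such an SD also holds shifts that the members of a library share, and in recovery each member was higher in 4H8 replicate 1. It therefore does not measure the spread of a difference between members. In each recovery library cct-6 was above cct-2 and cct-5, while the order of cct-2 and cct-5 varied. Last in both states was cct-8, at 7.43 ± 0.375 RPKM in arrest and 13.9 ± 2.75 RPKM in recovery.

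Against the pooled input, most members were only modestly occupied in arrest. With 8WG16, 5 of the 7 were below their input density at 12 hr of arrest, and with S2 1 was. The 4H8 replicates had 2 and 1 members below input. In each of the 4 recovery libraries none was below input. The highest arrest ratio to input of cct-4 was 1.26, and its recovery ratios ran from 1.69 to 2.76. At cct-1 the arrest ratios were 0.804 to 1.34 and the recovery ratios 1.59 to 3.02. Ranked against all gene models of the same library, cct-4 went from between the 83.3rd and 92.1st percentile in arrest to between the 96.9th and 97.5th in recovery. For cct-7 these percentiles were 93.6 to 95.5 and then 97.2 to 98.2, and for cct-8 31.3 to 61.4 and then 52.3 to 81.4.

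The test of feeding across all genes used limma on the 8 libraries of 12 hr arrest and recovery, with antibody as a term and Benjamini-Hochberg adjustment over 7214 genes. By this test 6 of 7 members were higher in recovery and 0 lower, where 22.9% of all genes tested were higher and 15.1% lower. The adjusted p from limma was 0.000538 for cct-4 and 0.000799 for cct-1 (change 0.97 ± 0.13). It was 0.00145 for cct-7 (0.85 ± 0.13), 0.001 for cct-2 (0.72 ± 0.10) and 0.00216 for cct-6 (0.72 ± 0.12). For cct-8, which passed the density filter only through recovery, it was 0.00456 (0.60 ± 0.11). For cct-5 the adjusted p was 0.635, with a 95% interval of the change from -0.26 to 0.45, and a change of up to that size is not excluded by a p that misses the threshold. The median change of the 7 members was 0.72 and that of all genes tested 0.08. Among all genes tested, 4.13% had a larger change than cct-4, 11.8% a larger one than cct-8 and 48.4% a larger one than cct-5.

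Without a test, the 4 recovery libraries were all above the 4 libraries of 12 hr arrest at cct-1, cct-4, cct-6 and cct-8. These are 4 of 7 members, and 14.4% of all genes tested showed the same separation. Of these 4, cct-8 passed the density filter only through its recovery libraries, so its separation is no separate support. At 10.3% of all genes, and at 0 members, the recovery libraries were all below. Within pairs of libraries that share antibody, replicate and code, recovery was higher in 27 of 28 comparisons of a member. The exception was cct-5 with 8WG16, at -0.36 (log2). The smallest change of a pair was that of cct-5 in 4 of 4 pairs. The largest was that of cct-4 in 3 pairs and of cct-1 in the S2 pair.

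**Figure D2:**
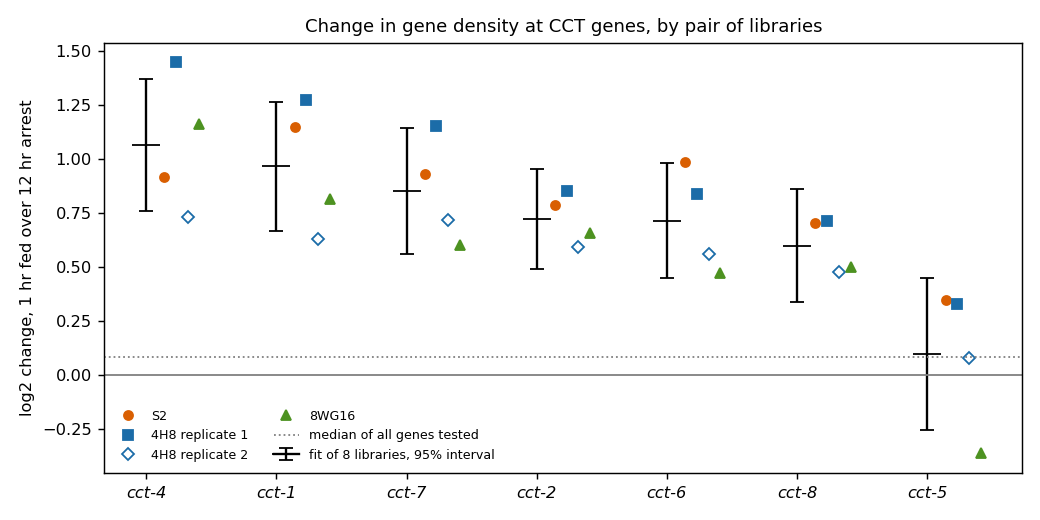
Change of gene density from 12 hr of arrest to 1 hr after feeding (log2 of RPKM + 5, vertical axis) at each member. Bars are the limma estimate with its 95% interval, points are the pairs of libraries, and the dotted line is the median of all genes tested. The bars of 6 members lie above 0, and that of cct-5 runs from -0.26 to 0.45.

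The calls depended on how libraries were put on a common scale. When each library was scaled on the median of 1354 chemoreceptor genes, receptors that few cells use, all 6 changes stayed above 0 (0.32 to 0.68). None of the 7 then passed limma's test (adjusted p 0.0872 to 0.396 for the 6), with cct-5 at -0.27. The same scaling moved the median of all genes from 0.08 to -0.25, and called 391 genes higher and 1598 lower, against 1653 and 1090 with the deposited scaling. Quantile normalization called 1240 higher and 1502 lower. Relative to the median of all genes, the 6 members stood 0.57 to 0.93 higher with chemoreceptor scaling and 0.52 to 0.98 higher with the deposited scaling. Such scaling changes all genes of a library by the same factor, so the distance from the median is largely kept by construction. The likeness of these ranges is therefore no test of whether the rise survives the scaling.

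**Figure D3:**
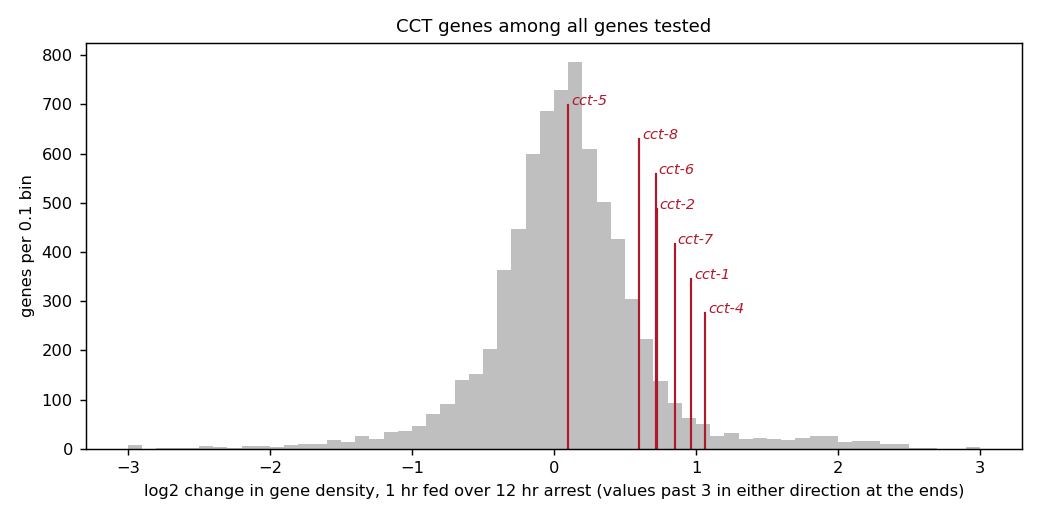
Number of genes (vertical axis) by change of gene density from 12 hr of arrest to 1 hr after feeding (log2 of RPKM + 5, bins of 0.1) among the 7214 genes tested. Red lines mark the members, with heights set only for legibility. Of the members, cct-5 lies at 0.10 near the median of 0.08, and the others lie between 0.60 and 1.07.

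Each antibody was then taken on its own in a limma fit of all 9 ChIP libraries, which shares libraries with the averaged comparison. Only 4H8 had replicates, and the single libraries of S2 and 8WG16 were assumed to vary like them. With 4H8, 5 of 7 members were higher and 0 lower, where 7.85% of 7240 genes were higher and 6.13% lower. These were cct-4 (1.09 ± 0.22, adjusted p 0.026), cct-1 (0.95 ± 0.21, 0.0337), cct-7 (0.94 ± 0.21, 0.0347), cct-2 (0.72 ± 0.17, 0.0395) and cct-6 (0.70 ± 0.17, 0.0425). The change of cct-8 was 0.60 (adjusted p 0.0802) and that of cct-5 0.20 (adjusted p 0.533). Without 4H8 arrest replicate 1 or without 4H8 recovery replicate 1, limma called 0 members, without arrest replicate 2 it called 2, and without recovery replicate 2 it called 5.

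With S2, the changes ran from 0.35 at cct-5 to 1.15 at cct-1. Limma called 0 of 7 members, 6 of them had an unadjusted p under 0.05, and 4.05% of all genes were called higher and 2.96% lower. The lowest adjusted p was 0.0653, at cct-6. With 8WG16 the changes ran from -0.36 at cct-5 to 1.16 at cct-4. Limma again called 0 of 7, 3 members had an unadjusted p under 0.05, and 0.304% of all genes were called higher and 0.787% lower.

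The difference between antibodies in the response was tested directly. For 4H8 minus S2 the differences ran from -0.28 at cct-6 to 0.17 at cct-4, with 95% intervals reaching from -1.08 to 1.10. Limma called 0 of 7, none had an unadjusted p under 0.05 (0 of 7), and 0.0276% of all genes were called in either direction. For 4H8 minus 8WG16 they ran from -0.07 at cct-4 to 0.57 at cct-5, whose interval was -0.32 to 1.45. Limma called 0 of 7 and 0% of all genes, with 0 members at an unadjusted p under 0.05. Differences between antibodies of up to these interval bounds remain possible.

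Between 6 hr and 12 hr of arrest, density measured with S2 changed little in value. At cct-4 it was 24.3 and then 29.8 RPKM, at cct-2 22.2 and then 25.2 RPKM, and at cct-8 9.68 and then 8.24 RPKM. The fitted changes ran from -0.15 at cct-8 to 0.25 at cct-4, with 95% intervals reaching from -0.80 to 1.00. Limma called 0 of 7 members and 0% of all genes, and 0 members had an unadjusted p under 0.05. The codes of the 6 hr and 12 hr libraries differ, so time and whatever the code marks cannot be told apart.

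At the start of the genes, cct-4 was the member that rose. The deposited density in a window of about 200 bp over the most upstream transcription start site (TSS) was 17.4 RPKM for cct-4 with S2 at 6 hr. At 12 hr it was 12.9 RPKM with S2, 7.14 and 15.1 RPKM with 4H8, and 26.7 RPKM with 8WG16. After feeding it was 47.2 RPKM with S2, 37.8 and 45.2 RPKM with 4H8, and 26.5 RPKM with 8WG16. The S2 and 4H8 libraries of recovery were well above those of arrest, and the pair of 8WG16 libraries was level. Limma on 8 libraries gave a change of 1.17 ± 0.29 (adjusted p 0.00133), and the 4H8 comparison gave 1.57 ± 0.37 (adjusted p 0.00293).

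Of the members, 6 passed the filter for TSS density, and 1 was called higher and 0 lower, where 6.99% of 6808 genes were higher and 21.7% lower. In the 4H8 comparison 1 of 6 was higher, against 3.79% of all genes higher and 10.6% lower. With no filter neither call of cct-4 was kept by limma (adjusted p 0.141 averaged, 0.297 with 4H8). More genes were then tested, and limma's estimate of the spread shared between genes also changed. The part of each was not tested. The 4H8 call was also lost without arrest replicate 1 (0.102) and without recovery replicate 2 (0.085). The other 5 members had averaged changes from -0.26 at cct-5 to 0.38 at cct-7. At cct-1 the windows held 7.14 to 29.6 RPKM at 12 hr of arrest and 9.77 to 17.8 RPKM in recovery, with a change of 0.02 ± 0.30 (adjusted p 0.966). The arrest value of 29.6 RPKM came from 8WG16. Across the 7 members recovery was higher in 16 of 28 pairs.

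Few reads stood behind these windows, from 0 to 53 over all libraries and 0 to 10 with 8WG16. In the 8WG16 libraries cct-8 was listed at 0 RPKM in arrest and cct-5 at 0 RPKM in recovery. A count of 0 allows up to 8.88 RPKM in that arrest library and 11.3 RPKM in that recovery library (3 reads, counting error only). Between 6 hr and 12 hr of arrest with S2, limma called 0 of 6 members at the TSS, with changes from -1.10 at cct-5 to 1.15 at cct-6. Of these 2 had an unadjusted p under 0.05, and 3.49% of all genes were called higher and 0.118% lower.

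**Figure D4:**
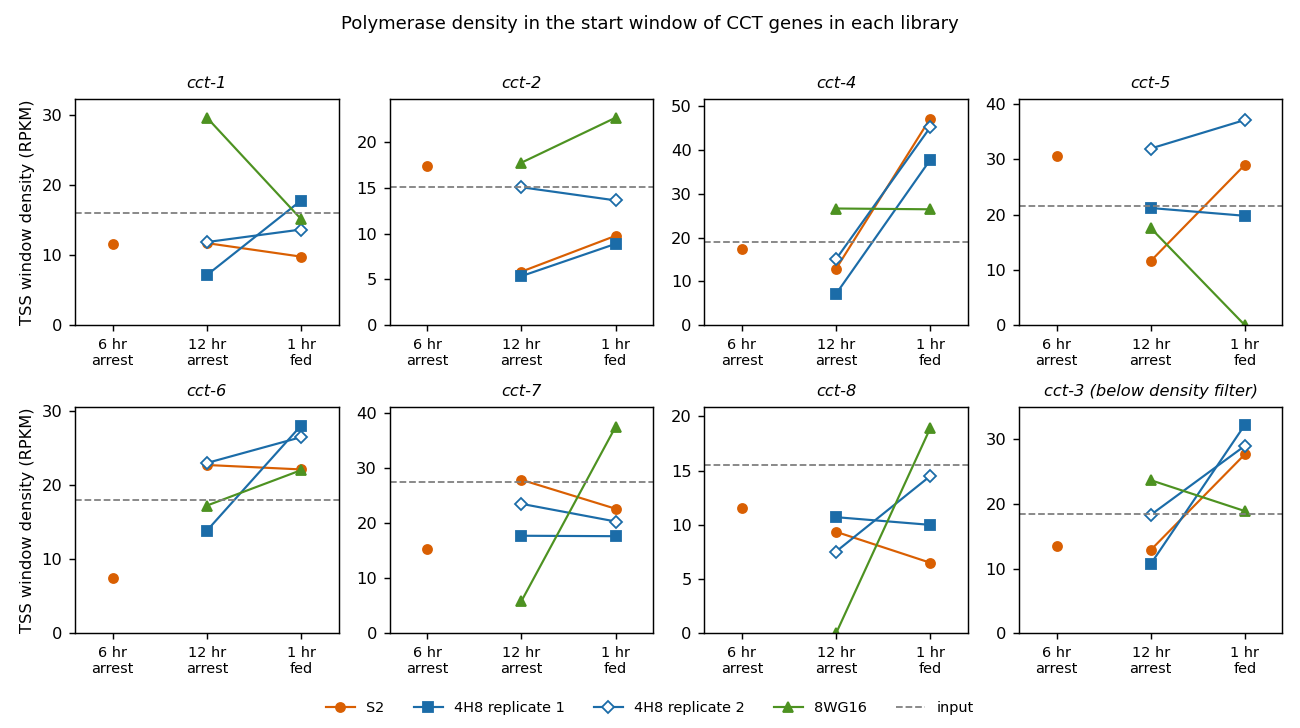
Density of polymerase in the window over the most upstream transcription start site (RPKM, vertical axis from 0) of the 7 members and cct-3, drawn as for the gene models. Each point is 1 library and the dashed line is the pooled input. The S2 and 4H8 lines of cct-4 rise to between 37.8 and 47.2 RPKM, and lines of the other members cross.

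The share of polymerase at the start was followed as 5' bias, log2((TSS density + 5)/(gene density + 5)). It fell at cct-1 by 0.94 on the log2 scale (standard error 0.29, limma adjusted p 0.033). This was 1 of 7 members, a share near that of all genes, where 14.4% of 7561 genes were lower and 1.55% higher. The change in 5' bias is the TSS change less the gene density change. At cct-1 these were 0.02 and 0.97, so the fall restates the rise over the gene model and does not show a loss at the start. The other members ranged from -0.47 at cct-7 to 0.10 at cct-4, and the median of all genes was -0.20. The call at cct-1 was lost without the S2 library of 12 hr arrest (adjusted p 0.166) or of recovery (0.162), without the 8WG16 library of arrest (0.135) or of recovery (0.127), and under 4 other settings. Without either 8WG16 library cct-7 was called lower in its place, at -1.08 (adjusted p 0.0167 and 0.0165).

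The eighth CCT gene, cct-3, which encodes the gamma subunit, is in the deposited tables but outside the list of members, and was looked at after its values were seen. Its model spans 10000 bp at II:2233541-2243540. It had 4.99 RPKM with S2, 4.29 and 3.77 RPKM with 4H8 and 4.03 RPKM with 8WG16 at 12 hr of arrest. In recovery it had 13.5 RPKM with S2, 12.2 and 8.73 RPKM with 4H8 and 7.49 RPKM with 8WG16, all above arrest. It did not reach the density filter. With no filter its change was 0.72 ± 0.12 (limma, adjusted p 0.016 over 20314 gene models).

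The surroundings of the members were described from the same coordinates. Each of 4 members had a divergent neighbour starting within 500 bp upstream, and 6 had a neighbour downstream within 500 bp or overlapping. Upstream of cct-4, at 452 bp, lies nst-1, which encodes a nucleolar GTPase of the nucleostemin family. Its density was 17.0 RPKM with S2, 15.8 and 13.6 RPKM with 4H8 and 10.6 RPKM with 8WG16 at 12 hr. In recovery it was 46.2 RPKM with S2, 32.2 and 26.2 RPKM with 4H8 and 28.0 RPKM with 8WG16, with no overlap of the states (change 0.97, limma adjusted p 0.000409). The other divergent neighbours also rose, mig-5, a Dishevelled gene next to cct-1, by 0.47 (adjusted p 0.0148), alh-9 next to cct-6 by 0.35 (0.026) and T10B5.4 next to cct-7 by 0.57 (0.0279). With no filter on density the adjusted p of these 3 was above 0.05. The call of T10B5.4 was also lost without the S2 library of either state, either 4H8 library of arrest or 4H8 recovery replicate 1. That of alh-9 was lost without the same 3 libraries of 4H8, and that of mig-5 without the S2 library of either state.

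Downstream of cct-2, T21B10.1 overlaps it by 74 bp on the same strand, and reads of the overlap belong to both models. The part of the overlap in the change of cct-2 was not tested. RefSeq names T21B10.1 mrpl-50, a gene for a mitochondrial ribosomal protein. It went from 46.8 RPKM with S2, 34.5 and 35.8 RPKM with 4H8 and 21.6 RPKM with 8WG16 to 137 RPKM with S2, 96.3 and 63.7 RPKM with 4H8 and 42.1 RPKM with 8WG16. This was a change of 1.10 (limma adjusted p 0.0014), larger in value than that of cct-2. T05C12.8, downstream of cct-1, rose by 0.75 (adjusted p 0.00291). Next to cct-5, atf-7, a bZIP transcription factor gene, did not pass the test (0.14, adjusted p 0.468), nor did Y32G9A.8 next to cct-7 (0.27, adjusted p 0.117). Downstream of cct-6 and cct-8, ddx-23 and csn-4 were below the density filter. Of the 10 neighbours of members, all but ddx-23 and csn-4 were tested, and 6 were called higher, where 22.9% of all genes tested were higher. Among these 6, nst-1 was the only one that passed under chemoreceptor scaling.

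The genes most like the CCT genes were sought by the smallest root mean square difference from the mean centred profile of the members over 9 libraries. Among 3046 candidates these were eat-3 (0.082 log2 units), tag-242 (0.083), cgh-1 (0.083), dnj-19 (0.089) and eif-3.E (0.095). They encode a mitochondrial dynamin-related protein (eat-3), a DEAD-box RNA helicase (cgh-1), a DnaJ co-chaperone (dnj-19) and a translation initiation factor subunit (eif-3.E), and RefSeq names tag-242 dohh-1. With S2, cgh-1 had 43.7 RPKM at 12 hr of arrest and 93.0 RPKM in recovery. The members themselves differed from their own mean by 0.05 at cct-2 to 0.33 at cct-5. This is a description of the 9 libraries, which all share the contrast of feeding.

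Other chaperones and the clients of CCT were followed as lists, in the averaged comparison of gene density. As above, 22.9% of all genes were higher and 15.1% lower in it, with a median of 0.08. Of the 6 genes for subunits of prefoldin, which delivers clients to CCT, 5 were tested. With 1 higher, 1 lower and 3 not called, and a median change of -0.08, their shares were near those of all genes. The 4 with the largest absolute changes included pfd-2, which rose by 0.59 (limma adjusted p 0.00238), and pfd-6, which fell by 0.96 (adjusted p 0.00199). The values of pfd-4 (-0.31) and pfd-3 (-0.08) did not pass. At 12 hr of arrest pfd-6 had 28.1 RPKM with S2, 28.3 and 18.3 RPKM with 4H8 and 26.2 RPKM with 8WG16. In recovery it had 10.6 RPKM with S2, 14.0 and 8.75 RPKM with 4H8 and 8.81 RPKM with 8WG16, below all libraries of 12 hr arrest. The S2 library of 6 hr arrest was also below all libraries of 12 hr arrest, and lay within the range of the recovery libraries. With S2 the change from 6 hr to 12 hr was 0.88 and was not called. The fall of pfd-6 therefore holds against 12 hr of arrest and was not seen against 6 hr. The higher call rests on pfd-2, whose mean was 9.20 RPKM in 12 hr arrest and 16.6 RPKM in recovery, so that it passed the density filter only through recovery. With no filter its adjusted p was 0.0123, and under chemoreceptor scaling 0.257.

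Of 21 actin and tubulin genes 17 were tested, and 7 were higher and 0 lower, with a median of 0.16, where 22.9% of all genes were higher and 15.1% lower. The largest changes were at act-5, an intestinal actin, by 1.27 (limma adjusted p 0.000266), and at the tubulin genes tbb-2 (0.55), mec-7 (0.52) and tba-1 (0.52). Under chemoreceptor scaling none of these 4 passed. Quantile normalization took tbb-2 to 0.11 (adjusted p 0.385) and tba-1 to 0.21 (0.115), and with no filter tbb-2 was at 0.0664. Both calls were also lost without the S2 library of either state and without replicate 1 of 4H8 in either state. That of tbb-2 was lost without 4H8 arrest replicate 2, and that of tba-1 without the 8WG16 library of arrest. Reads of near-identical actin and tubulin genes could be assigned to the wrong copy, so single values of these families are uncertain.

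Among other folding genes, 6 of 8 tested were higher and 0 lower, with a median of 0.82, where 22.9% of all genes were higher and 15.1% lower. The Hsp70 gene hsp-1 had 103 RPKM with S2, 94.3 and 101 RPKM with 4H8 and 67.2 RPKM with 8WG16 at 12 hr of arrest. In recovery it had 565 RPKM with S2, 558 and 395 RPKM with 4H8 and 245 RPKM with 8WG16, far above arrest in each pair (change 2.15, limma adjusted p 7.07e-05). The Hsp90 gene daf-21 rose by 1.41 (0.000423). The mitochondrial chaperone genes hsp-60 and hsp-6 rose by 1.41 (0.00055) and 0.92 (0.0024), the latter not past the threshold under chemoreceptor scaling (0.289). The list was chosen with earlier results of these data known.

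**Figure D5:**
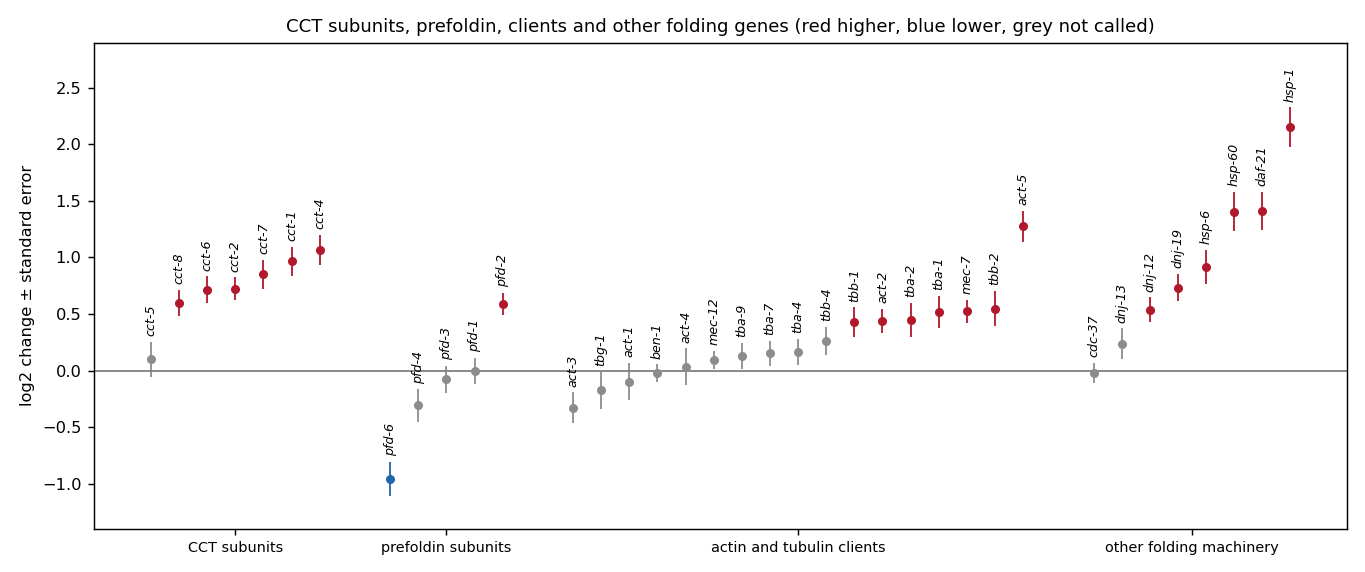
Change of gene density from 12 hr of arrest to 1 hr after feeding (log2 of RPKM + 5 ± standard error, vertical axis) of the tested CCT, prefoldin, actin and tubulin, and other folding genes. Red points were called higher, blue lower and grey not called by limma. The highest is hsp-1 at 2.15, the lowest pfd-6 at -0.96, and 6 of 7 CCT points are red.

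Genes that mark adults or single tissues were also looked at, and the few calls went in both directions. The summed density of the 6 vitellogenin genes, yolk protein genes of adult intestine, was 19.4 to 37.01 RPKM in the 5 arrest libraries and 27.9 to 62.5 RPKM in the 4 recovery libraries. All were below the input sum of 73.4 RPKM. Of 11 marker genes 6 were tested, with 1 higher and 2 lower, where 22.9% of all genes were higher and 15.1% lower. The higher one was vit-6 (0.67, limma adjusted p 0.0117), which passed the density filter only through recovery, at a mean of 9.23 RPKM in 12 hr arrest and 18.1 RPKM in recovery. It was below input in each library, and with no filter its adjusted p was 0.0542. The muscle myosin gene myo-3 fell by 0.95 (adjusted p 0.00368), while unc-54, another muscle myosin gene, was at 0.11 (adjusted p 0.601) and the intestinal gene elt-2 at 0.13 (0.299). Of the neuronal genes, rab-3 was at -0.25 (0.0923). The other, unc-119, was at -0.26 (0.0475), a call lost with no filter (0.0718) and without any 1 of the 8 libraries. Their part in the change of the CCT genes was not tested.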

How the data were processed

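Polymerase II ChIP-seq of C. elegans N2 larvae was analysed in 9 ChIP columns and 1 input column, from 14 samples. Per the file headers, the authors deposited RPKM over gene models and over a TSS window of 200 bp, and a fold enrichment, the ratio to input or to the median input where that was higher. The authors also deposited a 5' bias ratio, which was not used; 5' bias was computed from the densities. The aligner is not given in the sources used here. Depth was worked back from the smallest density steps, with gene length as end minus start. Between 98.6% and 99.8% of the gene models that could be checked came out as whole reads within 0.1 read, and 90.0% to 91.9% of TSS windows. The windows of cct-5, cct-7 and cct-6 came out at 202, 202 and 206 bp.

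Values were log2(RPKM + 5). Genes entered a fit at a mean of at least 10 RPKM. For 5' bias, models had at least 1000 bp. Tests used limma 3.58.1 in R 4.3.3 (eBayes with trend, two-sided), with Benjamini-Hochberg adjustment over all genes tested and a threshold of 0.05, and were tested on simulated data. The prior counted for 4.34 degrees of freedom for gene density and 43.77 for TSS density, against 4 residual. The p-values measure the spread between these libraries. The series calls the 4H8 pairs biological replicates, and whether antibodies shared chromatin is not stated.

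Named were all members, gene models within 500 bp, the 5 most alike genes, and up to 4 genes of each list with the largest change. Of the listed markers and folding genes, those with no match by public name were left out. Members and lists were chosen with earlier results of these data known. Alternatives were pseudocounts of 1 and 10, no filter, quantile and chemoreceptor scaling, fold enrichment (plus 0.5), a replicate block and leaving out each library. In the fits by antibody only 4H8 libraries could be left out. Tables were handled with pandas 2.3.3 and numpy 2.4.6 under Python 3.11.15, and figures with matplotlib 3.10.9. RefSeq (WBcel235) gave names only. No sequence is printed, since none was used here.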

Additional observations from a re-analysis of the deposited data

How the results depend on the processing

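Of 133 counts of called members recomputed, 109 stayed within 1.5 times the reported count. Many of these 109 were counts of 0 that stayed 0, as for the differences between antibodies, and say little about stability. In the averaged gene density comparison 6 members were called; chemoreceptor scaling gave 0, and leaving out a library gave 5 to 6, with cct-8 untested without the S2 recovery library or 4H8 recovery replicate 1, where it missed the filter. For 4H8 (5 called), no filter and chemoreceptor scaling gave 0 and leaving out a library 0 to 5. For S2 (0 called), fold enrichment gave 5. For 8WG16 (0 called), quantile normalization gave 2 and fold enrichment 1. Only 4H8 libraries could be left out of these fits, since S2 and 8WG16 had single libraries. The changes with S2 and 8WG16 therefore stayed the same, and their dependence on a single library was not tested. For TSS density (1 called), no filter gave 0 and leaving out a library 1; for TSS density with 4H8 (1 called), no filter and chemoreceptor scaling gave 0 and leaving out a library 0 to 1. For 5' bias (1 called), a pseudocount of 1, no filter, quantile normalization and chemoreceptor scaling gave 0 and leaving out a library 0 to 1, with cct-7 in place of cct-1 without either 8WG16 library. Same-numbered 4H8 libraries deviated together (r = 0.334 across 7240 genes), but with 2 pairs the numbers pair nothing by themselves. With the replicate block, 6 members were called in the averaged comparison, 6 with 4H8, 4 with S2 and 1 with 8WG16. Fold enrichment also gave 6 with 4H8, where cct-8 joined the 5 called. Changes that turned sign were those of cct-5 averaged (-0.009 with quantile normalization, -0.27 with chemoreceptor scaling, -0.008 to 0.252 leaving out a library), cct-5 with 4H8 (-0.28 with chemoreceptor scaling, -0.008 to 0.417 leaving out a library), atf-7 (-0.24) and Y32G9A.8 (-0.035) with chemoreceptor scaling, and pfd-3 (-0.185 to 0.019 leaving out a library, positive without 4H8 recovery replicate 2). So did cct-8 between 6 hr and 12 hr (0.20 with chemoreceptor scaling), cct-4 for 4H8 minus S2 (-0.16 with chemoreceptor scaling, -0.031 to 0.38 leaving out a library) and for 4H8 minus 8WG16 (-0.28 to 0.13), cct-5 at the TSS (-0.69 to 0.38) and the 5' bias of cct-4 (-0.10 to 0.53). The cause was not tested. No filter means more genes tested and also a new estimate of the spread that limma shares between genes. Over all genes, higher calls ran from 391 to 1969 (1653 reported) in the averaged comparison, 31 to 1551 (568) with 4H8, 0 to 866 (293) with S2, 3 to 867 (22) with 8WG16, 164 to 645 (476) at the TSS and, lower, 346 to 1228 (1092) for 5' bias. Depth limits the TSS values most, where the median window held 2 to 8 reads.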
